A study of Mus musculus with 12 samples.

Results

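The 7 genes described here encode subunits of the GABA-A receptor: Gabra2, Gabra3, Gabra4 and Gabra5 (α2 to α5), Gabrb1 and Gabrb2 (β1 and β2) and Gabrd (δ). They were taken by symbol from a table of 17283 genes, and all 7 were found in it and passed the filter on low values. The medial prefrontal cortex (mPFC) was sampled after 7 days of intraperitoneal injection. The 4 groups of 3 libraries were BTBR mice given astragaloside IV (BTBR ASIV), BTBR mice on the DMSO solvent (BTBR vehicle), C57 mice on the compound (C57 ASIV) and C57 mice on the solvent (C57 vehicle). BTBR is an inbred mouse line that serves to model autism, the C57 mice are labelled wild type, and astragaloside IV is a saponin of Astragalus root. The stated question was whether the compound improves transmitter signalling in BTBR mice. The sources used here give no age, sex or C57 substrain, and nothing says that the 3 libraries of a group came from separate mice, so p-values measure only the spread between these libraries.

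GABA-A receptors are chloride channels built of 5 subunits, usually α and β subunits with a γ or δ subunit, and they carry most fast inhibition in the cortex. The α subunit sets where the receptor sits and how it responds to benzodiazepines. Receptors with α2 or α3 are mainly synaptic, whereas those with α5, or with α4 and δ, lie largely outside the synapse and carry tonic inhibition. β subunits line the GABA binding site and bind anchoring and trafficking proteins. Most subunit genes lie in clusters in the genome. Gabra2, Gabra4 and Gabrb1 share a cluster on chromosome 5 with Gabrg1 (γ1), while Gabra5, Gabrb2, Gabra3 and Gabrd lie on chromosomes 7, 11, X and 4.

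Gabrb1 and Gabra5 were the subunits that were lower in BTBR than in C57 mice under vehicle and higher in BTBR mice under ASIV, so the sequences before their starts are shown, with that of Gabra4, the neighbour of Gabrb1 that passed in neither comparison. RefSeq (GRCm38.p6) gave upstream windows for 6 of the 7 subunits. Gabra4 and Gabrb1 lie head to head on opposite strands: the first base of Gabra4 is 387 bases downstream of the upstream start of Gabrb1, and a further start of Gabrb1 lies 42.0 kb inside that gene. The Gabra5 window is chr7:57510060-57510309 (minus strand), the Gabrb1 window at the inner start is chr5:71699682-71699931 (plus strand), and the Gabra4 window is chr5:71658364-71658558 (minus strand). In the Gabra4 window, 55 bases next to the start are left out because they are an exon of Gabrb1. Capitals mark matches, on either strand, to any of 5 motifs searched: the NRF1 core CGCATGCG, the cAMP response element TGACGTCA, TATAAA, the GC box GGGCGG and the EGR motif GCGTGGGCG. No motif match overlapped another in these windows.
Gabra5: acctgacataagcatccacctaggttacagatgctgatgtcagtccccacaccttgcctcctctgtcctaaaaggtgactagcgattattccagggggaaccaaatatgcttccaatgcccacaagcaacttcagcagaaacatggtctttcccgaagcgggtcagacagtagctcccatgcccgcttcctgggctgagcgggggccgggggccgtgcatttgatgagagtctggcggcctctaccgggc
Gabrb1: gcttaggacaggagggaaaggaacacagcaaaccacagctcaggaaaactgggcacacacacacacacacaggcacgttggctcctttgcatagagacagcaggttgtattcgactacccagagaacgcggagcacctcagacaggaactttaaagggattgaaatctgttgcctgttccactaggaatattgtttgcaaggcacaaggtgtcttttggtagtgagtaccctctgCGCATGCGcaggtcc
Gabra4: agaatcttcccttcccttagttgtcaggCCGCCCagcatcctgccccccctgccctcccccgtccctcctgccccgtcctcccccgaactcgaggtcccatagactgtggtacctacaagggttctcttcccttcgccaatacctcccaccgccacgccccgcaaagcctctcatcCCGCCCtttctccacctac

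The inner Gabrb1 window held the NRF1 core 15 bases before the start, while the window at the upstream start of Gabrb1 held none of the 5 motifs. The NRF1 core is a match found in 1.55% of the 32851 upstream windows of 250 bases in the table. It was added to the motifs after its letters were seen in this window, so that share does not measure how unusual the match is. NRF1 is a transcription factor of nuclear genes for respiration, and in rat cortical neurons it has been reported to act at the β1 gene. The Gabra4 window held GC boxes, found in 32.7% of all windows, and the Gabra5 window held none of the 5 motifs. These letters are those of the C57BL/6J reference genome. A match is a description of the sequence, and neither binding nor the BTBR sequence was measured here.

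FPKM is given per kilobase of annotated exons, so the order and shares of the subunits depend on that length as well as on fragments. The exonic length was 13.8 kb for Gabrb1 and 2.875 to 7.64 kb for the others. In BTBR vehicle Gabrb1 had 884 to 1093 fragments and Gabra5 403 to 454, although Gabrb1 had the lower FPKM. Gabra3 was the highest of the 7 in all 4 groups, with 35.9 ± 4.603 FPKM in BTBR ASIV, 34.1 ± 3.40 in BTBR vehicle, 42.0 ± 4.08 in C57 ASIV and 40.02 ± 3.27 in C57 vehicle (SD, n = 3 each). No Gabra3 library overlapped those of the next subunit in its group. Gabrd followed in BTBR ASIV, BTBR vehicle and C57 vehicle, and Gabra5 followed in C57 ASIV, where its libraries overlapped those of Gabrd. Gabrb1 was lowest in both BTBR groups and Gabra2 in both C57 groups. The libraries of these 2 genes overlapped in every group except BTBR vehicle. The place of Gabra5 differed between strains: it ranked 4th in BTBR ASIV and 5th in BTBR vehicle, but 2nd in C57 ASIV and 3rd in C57 vehicle. Each library held 403 to 3196 fragments per subunit, so the counting error alone was 1.85 to 4.81% (SD relative to the mean), against a spread between replicates of 4.44 to 49.2%. For Gabra5 in BTBR vehicle the spread between replicates, 4.54%, was no larger than the counting error of 4.81%.

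**Figure D1:**
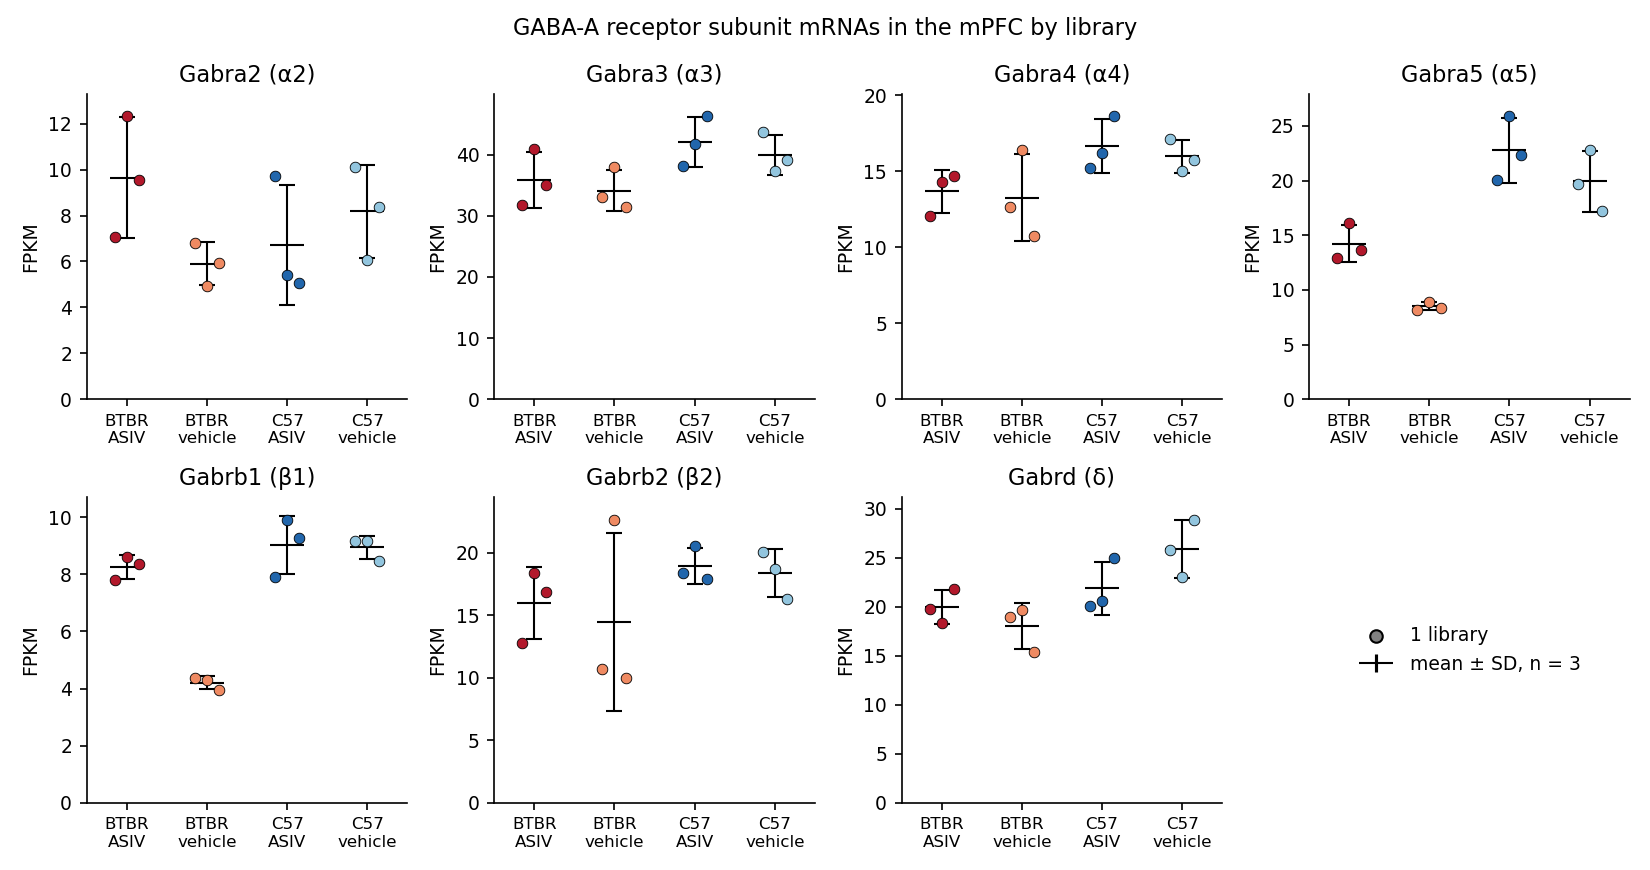
FPKM of each subunit mRNA (y axis, from 0) in the 12 libraries, by group (x axis); points are libraries and bars the mean ± SD of 3. Gabrb1 at 3.95 to 4.36 FPKM and Gabra5 at 8.19 to 8.94 FPKM in BTBR vehicle lie below every other library of these genes, and 1 BTBR vehicle library stands high for Gabrb2.

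Before these comparisons, the libraries differed in other ways. Depth was 16166327 to 18660038 fragments. The BTBR vehicle libraries stood apart on the first principal component of all genes tested (-4.13 to 2.25 in BTBR ASIV, 36.9 to 47.8 in BTBR vehicle and -23.7 to -13.8 in the C57 libraries), which held 54.0% of the variance. mRNAs of the mitochondrial genome held 3.00 to 3.22% of fragments in BTBR ASIV, 0.328 to 0.641% in BTBR vehicle, 3.02 to 4.54% in C57 ASIV and 4.39 to 4.67% in C57 vehicle. Their part in the subunit differences was not tested. Rescaling each library without mitochondrial genes left Gabra5, Gabrb1 and Gabrd called between the strains under vehicle. That rescaling moved the median over all genes there by only -0.05 on the log2 scale, so it does not test that part. Cortical markers were present, with Slc17a7, the vesicular glutamate transporter of cortical excitatory neurons, at 240.9 to 393.6 FPKM over all libraries. Of 10 striatal markers, 9 were in the table, and their summed level ran from 74.8 to 505.3 FPKM in BTBR ASIV, 95.1 to 295.9 in BTBR vehicle, 87.1 to 305.6 in C57 ASIV and 95.2 to 256.1 in C57 vehicle, ranges that overlap between groups.

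The strains were compared under vehicle, without the compound. Gabrb1 and Gabra5 were at about 47.1% and 42.7% of their C57 vehicle means in BTBR vehicle, and Gabrd was at 69.6%. The other α subunits and Gabrb2 did not pass. Of the 7 subunits, 3 were lower and 0 higher, with a median log2 difference of -0.41, against 0.01 over all genes tested. Of all 13586 genes tested, 20.8% were called lower, 22.3% higher and 43.1% were called in either direction, so calls were common in this comparison.

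Gabrb1 had 4.36, 4.32 and 3.95 FPKM in the BTBR vehicle libraries, against 9.16, 9.18 and 8.48 FPKM in the C57 vehicle libraries. All 3 BTBR libraries lay below all 3 C57 libraries, with little spread in either group. The log2 difference of FPKM + 1 was -0.93 ± 0.09 (SE; limma with Benjamini-Hochberg adjustment over all genes, adjusted p = 1.58e-05). In bulk tissue, fewer cells that express the gene and less mRNA per cell cannot be told apart.

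Gabra5, whose receptors serve tonic inhibition and are best known from hippocampus and deep cortical layers, had 8.19, 8.94 and 8.38 FPKM in BTBR vehicle. It had 19.7, 22.8 and 17.2 FPKM in C57 vehicle. Even the lowest C57 library was well above the highest BTBR library, and the log2 difference was -1.13 ± 0.12 (limma, adjusted p = 3.03e-05). The antisense gene Gm9962 overlaps 4.98% of the exonic length of Gabra5. Whether the counting used strand is not known here, so reads from that stretch cannot be told apart. Gm9962 was at 1.52 to 2.52 FPKM in BTBR vehicle and 1.43 to 1.702 FPKM in C57 vehicle, and its part in the Gabra5 difference was not tested.

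Gabrd, the δ subunit of extrasynaptic receptors, had 19.0, 19.7 and 15.4 FPKM in BTBR vehicle, against 25.8, 23.0 and 28.9 FPKM in C57 vehicle. The groups did not overlap, but the gap between the nearest libraries was small. Its log2 difference was -0.50 ± 0.12 (limma, adjusted p = 0.00608). Libraries did not overlap for these 3 of the 7 subunits, where 53.3% of all genes tested did not overlap.

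Gabrb2, the β subunit of many synaptic receptors, turned on 1 library. It had 10.7, 22.6 and 10.0 FPKM in BTBR vehicle, against 20.1, 18.7 and 16.3 FPKM in C57 vehicle, so BTBR vehicle replicate 2 stood above every C57 vehicle library and the other 2 below. The log2 difference was -0.41 ± 0.24 (limma, adjusted p = 0.186). Without that library it was -0.77 and passed (limma, adjusted p = 0.00119). In Gabra4 that library was again the highest of its group, with 12.6, 16.4 and 10.8 FPKM in BTBR vehicle against 17.1, 15.04 and 15.8 FPKM in C57 vehicle. Gabra4 had a log2 difference of -0.27 ± 0.14 (limma, adjusted p = 0.131) and -0.42 without replicate 2 (limma, adjusted p = 0.0132). The count of lower subunits was therefore 3 with all libraries and 5 without BTBR vehicle replicate 2. Of the 13586 genes tested, 2832 were called lower with all libraries and 2874 without that library. Replicate 2 was also the highest of its group for Gabra3, Gabra5 and Gabrd, and the lowest for Gabra2.

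The remaining α subunits showed no call. Gabra3 had 33.0, 37.9 and 31.4 FPKM in BTBR vehicle, against 43.6, 37.3 and 39.1 FPKM in C57 vehicle, with a log2 difference of -0.23 ± 0.12 (limma, adjusted p = 0.136, 95% interval -0.48 to 0.03). It passed under quantile normalization (limma, adjusted p = 0.0340) and after rescaling without mitochondrial genes (limma, adjusted p = 0.0443). Gabra2 had 6.81, 4.93 and 5.95 FPKM in BTBR vehicle, against 10.1, 6.08 and 8.37 FPKM in C57 vehicle, and overlapped between the groups (-0.40 ± 0.24; limma, adjusted p = 0.206). C57BL/6J mice are known to carry an intronic deletion that lowers Gabra2 mRNA in brain. The substrain used here is not known. Under vehicle the C57 mean was not below that of BTBR (8.19 against 5.90 FPKM), whereas under ASIV it was (6.72 against 9.65 FPKM). Neither difference passed, so these values do not settle whether the deletion is present.

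ASIV was compared with vehicle within BTBR mice to see its effect in the autism line. Gabrb1 and Gabra5 rose, by log2 differences of 0.83 and 0.67, Gabra2 was higher in every library without passing, and the other 4 subunits stayed within their spread. Of the 7 subunits, 2 were called higher and 0 lower, where 13.7% of all genes tested were called higher, 15.4% lower and 29.1% in either direction. The median over the 7 was 0.22 on the log2 scale, against -0.01 over all genes tested.

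Gabrb1 had 7.80, 8.62 and 8.35 FPKM in BTBR ASIV, against 4.36, 4.32 and 3.95 FPKM in BTBR vehicle. The groups were far apart and each was tight. The log2 difference was 0.83 ± 0.09 (limma, adjusted p = 0.000107), and the ratio of the mean FPKM was 1.96. Gabra5 had 12.9, 16.2 and 13.6 FPKM in BTBR ASIV, against 8.19, 8.94 and 8.38 FPKM in BTBR vehicle. Again no library overlapped, with a log2 difference of 0.67 ± 0.12 (limma, adjusted p = 0.00169) and a ratio of means of 1.67. Its antisense neighbour Gm9962 was at 0.763 to 1.38 FPKM in BTBR ASIV against 1.52 to 2.52 FPKM in BTBR vehicle. Gm9962 was named after its values were seen, and its part in the Gabra5 difference was not tested.

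Gabra2 had 7.07, 12.3 and 9.54 FPKM in BTBR ASIV, against 6.81, 4.93 and 5.95 FPKM in BTBR vehicle. The groups did not overlap, although the lowest ASIV library was close to the highest vehicle library. The log2 difference was 0.61 ± 0.24 (limma, adjusted p = 0.0804), and 0.79 without BTBR ASIV replicate 1 (limma, adjusted p = 0.0431). Libraries did not overlap for 3 of the 7 subunits, Gabra2, Gabra5 and Gabrb1, against 39.1% of all genes tested.

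Gabrb2 had 12.8, 18.3 and 16.9 FPKM in BTBR ASIV, against 10.7, 22.6 and 10.0 FPKM in BTBR vehicle, and overlapped. Its log2 difference was 0.22 ± 0.24 (limma, adjusted p = 0.532), and 0.57 without BTBR vehicle replicate 2 (limma, adjusted p = 0.0114). Gabra3 (0.07 ± 0.12), Gabra4 (0.05 ± 0.14) and Gabrd (0.15 ± 0.12) did not pass, with 95% intervals of the log2 difference of -0.18 to 0.32, -0.24 to 0.35 and -0.12 to 0.41. This comparison and that of the strains under vehicle share the BTBR vehicle libraries, so a low value there moves both.

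**Figure D2:**
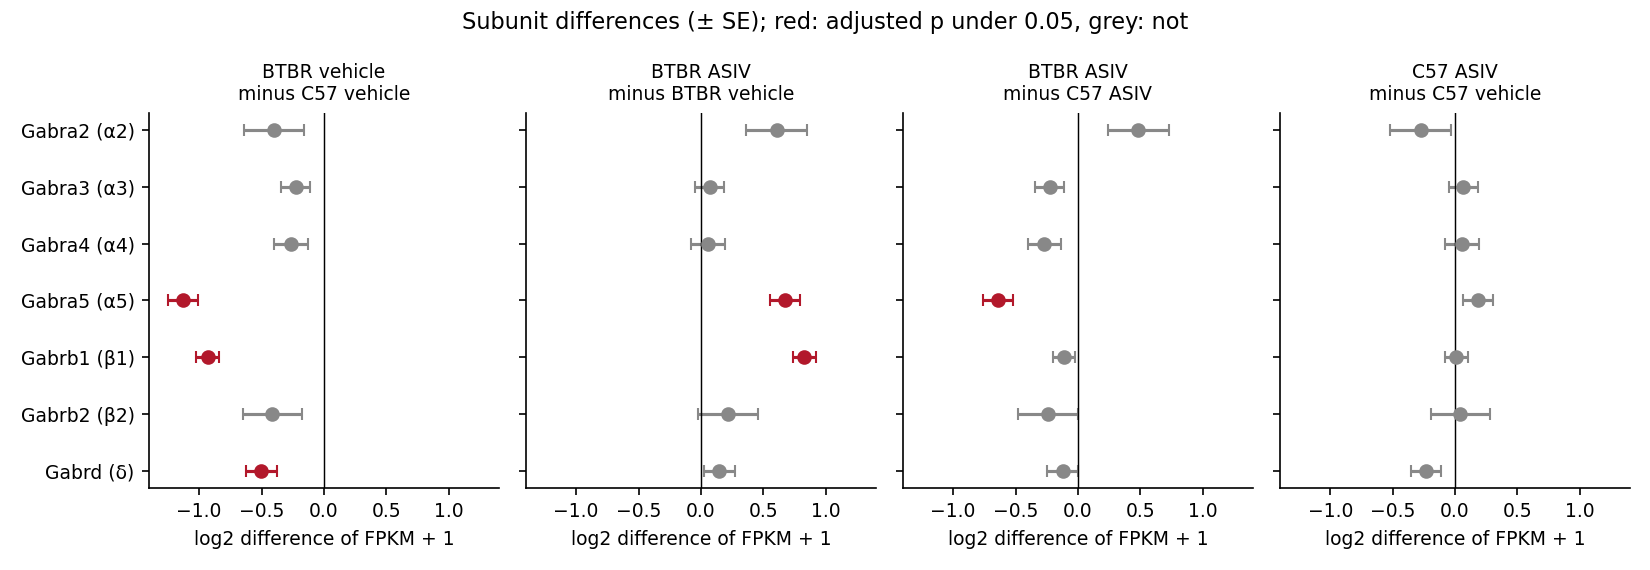
Log2 difference of FPKM + 1 (x axis) with its SE for the 7 subunits (rows) in 4 comparisons, red where the adjusted p is under 0.05. Gabrb1 and Gabra5 stand at -0.93 and -1.13 in BTBR vehicle minus C57 vehicle and at 0.83 and 0.67 in BTBR ASIV minus BTBR vehicle, and Gabra5 stays at -0.64 between the strains under ASIV.

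Between the strains under ASIV, Gabra5 was the subunit that passed. It had 12.9, 16.2 and 13.6 FPKM in BTBR ASIV, against 20.02, 25.9 and 22.4 FPKM in C57 ASIV, with no overlap and a log2 difference of -0.64 ± 0.12 (limma, adjusted p = 0.0174). The call was lost, at adjusted p of 0.069 to 0.0892, when any of BTBR ASIV replicates 1 and 3 or C57 ASIV replicates 2 and 3 was left out. Of the 7 subunits, 1 was lower and 0 higher, where 1.22% of all genes tested were called lower, 1.31% higher and 2.53% in either direction. Gabrb1 had 7.80, 8.62 and 8.35 FPKM in BTBR ASIV, against 7.92, 9.91 and 9.28 FPKM in C57 ASIV. These overlapped, and the log2 difference was -0.11 ± 0.09 with a 95% interval of -0.31 to 0.08 (limma, adjusted p = 0.518).

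Gabrd was at 19.7, 18.4 and 21.8 FPKM in BTBR ASIV, against 20.1, 20.6 and 25.0 FPKM in C57 ASIV, and did not pass (-0.12 ± 0.12; limma, adjusted p = 0.611). Gabra2 had the opposite sign, with 7.07, 12.3 and 9.54 FPKM in BTBR ASIV against 9.72, 5.39 and 5.06 FPKM in C57 ASIV (0.48 ± 0.24; limma, adjusted p = 0.297). Gabra4 did not overlap, with 12.04, 14.3 and 14.7 FPKM in BTBR ASIV against 15.2, 16.2 and 18.6 FPKM in C57 ASIV, but its log2 difference of -0.27 ± 0.14 did not pass (limma, adjusted p = 0.298). Non-overlap held for 2 of the 7 subunits and for 26.2% of all genes tested. Gabra3 and Gabrb2 overlapped between the groups, at -0.23 ± 0.12 and -0.24 ± 0.24.

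BTBR ASIV was also set against C57 vehicle, which asks how far treated BTBR mice stand from untreated C57 mice. By limma 0 of the 7 subunits passed, where 1.24% of all genes tested were called lower, 0.942% higher and 2.18% in either direction; 2 of the 7, Gabra5 and Gabrd, had an unadjusted p under 0.05. Gabrb1 was at 92.4% of its C57 vehicle mean, with a log2 difference of -0.10 ± 0.09 and a 95% interval of -0.30 to 0.09 (limma, adjusted p = 0.591). Gabra5 was at 71.4%, with no overlap between 12.9 to 16.2 FPKM in BTBR ASIV and 17.2 to 22.8 FPKM in C57 vehicle (-0.46 ± 0.12; limma, adjusted p = 0.0818). Gabrd was at 77.2%, also without overlap (-0.35 ± 0.12; limma, adjusted p = 0.158). Libraries did not overlap for 3 of the 7, with Gabra4 as the third, against 29.6% of all genes.

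ASIV against vehicle in C57 mice changed none of the 7 subunits by the test, and 0% of all genes tested were called by limma; 0 of the 7 subunits had an unadjusted p under 0.05. Gabrb1 had 7.92, 9.91 and 9.28 FPKM in C57 ASIV, against 9.16, 9.18 and 8.48 FPKM in C57 vehicle, a log2 difference of 0.01 ± 0.09 with a 95% interval of -0.19 to 0.21. Gabra5 had 20.02, 25.9 and 22.4 FPKM in C57 ASIV, against 19.7, 22.8 and 17.2 FPKM in C57 vehicle (0.19 ± 0.12, interval -0.08 to 0.45). Gabrd had 20.1, 20.6 and 25.0 FPKM in C57 ASIV, against 25.8, 23.0 and 28.9 FPKM in C57 vehicle (-0.23 ± 0.12, interval -0.50 to 0.04). All 7 subunits overlapped between these groups, where 13.1% of all genes did not. Each had a limma adjusted p of 1.00. Gabra2 varied most within C57 ASIV, with 9.72 FPKM in replicate 1 and 5.39 and 5.06 FPKM in the other libraries.

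The interaction tested whether the ASIV difference in BTBR mice departs from that in C57 mice. For Gabrb1 it was 0.82 ± 0.13 on the log2 scale and passed (limma, adjusted p = 0.00270); 6.91% of all genes tested were called in this direction, 7.36% in the other and 14.3% in either. Gabra5 stood at 0.49 ± 0.17 (limma, adjusted p = 0.0773) and Gabra2 at 0.88 ± 0.34 (limma, adjusted p = 0.107), and neither passed. Rescaling without mitochondrial genes brought Gabra5 past the threshold (0.55; limma, adjusted p = 0.0466). Gabrd stood at 0.38 ± 0.17 (limma, adjusted p = 0.169), and Gabra3, Gabra4 and Gabrb2 were at 0.00 ± 0.16, -0.00 ± 0.19 and 0.17 ± 0.34.

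Within the chromosome 5 cluster, levels were compared between neighbours. Gabra2 (chr5:70957597-71095849) starts 562.459 kb from Gabra4 (chr5:71569749-71658308), while Gabrb1 (chr5:71658113-72149037) overlaps the first 196 bases of Gabra4 in GENCODE M21 (mm10), with 46 exonic bases shared, or 0.332% of the exonic length of Gabrb1. In each library the ratio of Gabrb1 to Gabra4 does not depend on how the library was scaled. It was 0.648, 0.604 and 0.567 in BTBR ASIV, against 0.345, 0.263 and 0.367 in BTBR vehicle. In the other strain it was 0.520, 0.612 and 0.498 in C57 ASIV, against 0.535, 0.610 and 0.538 in C57 vehicle. The ratio thus did not overlap between BTBR vehicle and any other group. An exact two-sided permutation test gave p = 0.1 for BTBR vehicle against C57 vehicle and for BTBR ASIV against BTBR vehicle, the smallest that 3 against 3 libraries allow (0.182 after adjustment over 20 ratio comparisons). Gabrb1 over Gabra2, also in the cluster, was 0.892 ± 0.202 in BTBR ASIV, 0.727 ± 0.129 in BTBR vehicle, 1.496 ± 0.590 in C57 ASIV and 1.14 ± 0.321 in C57 vehicle (SD, n = 3 each). It did not overlap between BTBR vehicle and C57 vehicle (exact permutation p = 0.1, 0.182 adjusted), but it overlapped between BTBR ASIV and BTBR vehicle (exact permutation p = 0.2, 0.308 adjusted), and the log2 differences of Gabra2 had the signs of those of Gabrb1 in both comparisons. The fourth gene of the cluster, Gabrg1, was at 3.63 to 5.63 FPKM in BTBR ASIV, 3.44 to 5.23 in BTBR vehicle, 3.85 to 5.04 in C57 ASIV and 4.45 to 4.78 in C57 vehicle, and it passed in no comparison.

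**Figure D3:**
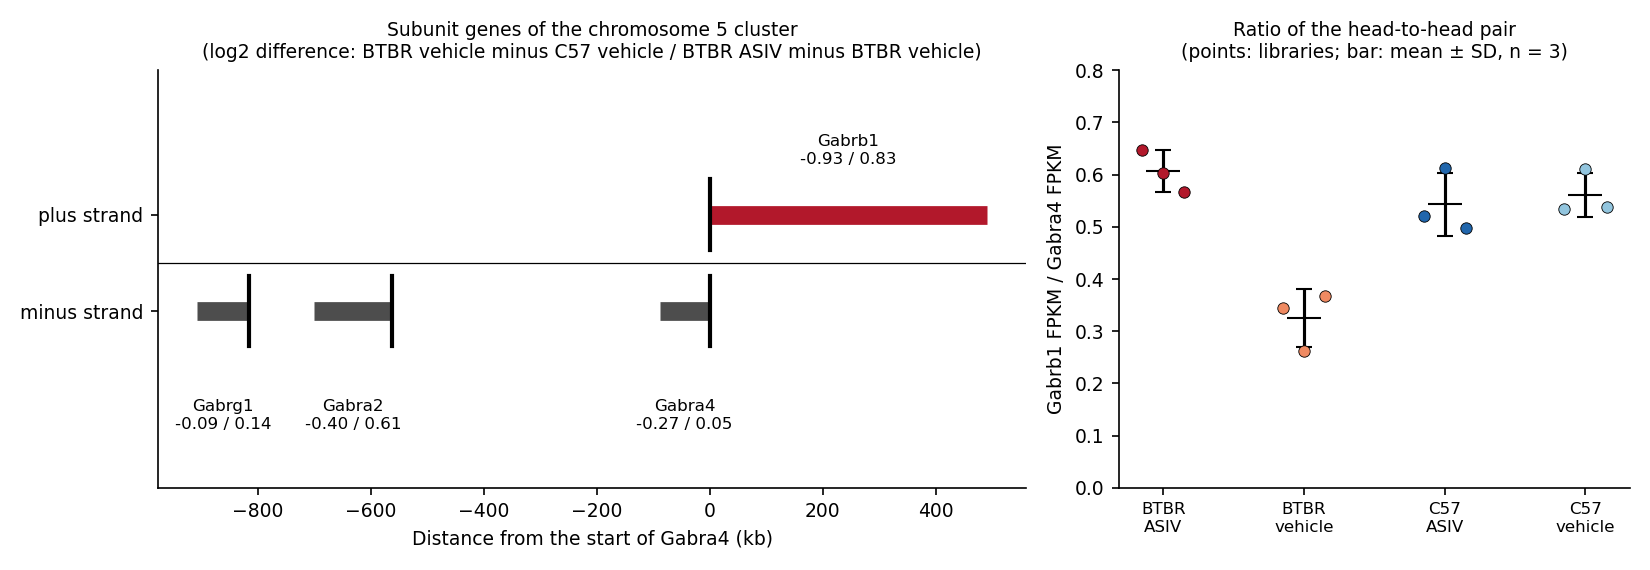
Left, the subunit genes of the chromosome 5 cluster by distance from the start of Gabra4 (x axis, kb) and strand, each with its log2 difference for BTBR vehicle minus C57 vehicle and then BTBR ASIV minus BTBR vehicle, with genes in red where the strain difference passed and black bars at gene starts. Right, the ratio of Gabrb1 to Gabra4 FPKM per library with the mean ± SD of 3, which is 0.263 to 0.367 in BTBR vehicle and at least 0.498 in the other groups.

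Ratios within the α or β class were formed in the same way. Gabra5 over Gabra3 was 0.397 ± 0.00864 in BTBR ASIV, 0.250 ± 0.0158 in BTBR vehicle, 0.543 ± 0.0708 in C57 ASIV and 0.501 ± 0.0958 in C57 vehicle (SD, n = 3 each). BTBR vehicle did not overlap C57 vehicle, nor did BTBR ASIV overlap BTBR vehicle or C57 ASIV (exact permutation p = 0.1 each, adjusted 0.182). Gabrb1 over Gabrb2 was 0.525 ± 0.0748 in BTBR ASIV, 0.331 ± 0.122 in BTBR vehicle and 0.489 ± 0.0320 in C57 vehicle. These pairs were picked with the differences known, so they describe the composition and add no independent support.

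As a share of the summed FPKM of the 7 subunits, Gabra5 held 12.1 ± 0.637% in BTBR ASIV, 8.73 ± 0.997% in BTBR vehicle, 16.5 ± 1.73% in C57 ASIV and 14.6 ± 2.38% in C57 vehicle. Gabrb1 held 7.04 ± 0.413% in BTBR ASIV, 4.32 ± 0.491% in BTBR vehicle, 6.54 ± 0.489% in C57 ASIV and 6.52 ± 0.370% in C57 vehicle. The share of Gabra3 was 30.5 ± 1.22% in BTBR ASIV, 34.8 ± 1.78% in BTBR vehicle, 30.4 ± 1.41% in C57 ASIV and 29.1 ± 0.871% in C57 vehicle, so it was largest in BTBR vehicle although its mean FPKM was not. The share of Gabra4 was 11.6 ± 0.599% in BTBR ASIV, 13.4 ± 0.877% in BTBR vehicle, 12.1 ± 0.725% in C57 ASIV and 11.6 ± 0.220% in C57 vehicle. Libraries did not overlap for these 4 shares in BTBR vehicle against C57 vehicle or in BTBR ASIV against BTBR vehicle. Between the strains under ASIV, the share of Gabra5 did not overlap either. The share of Gabrd did not overlap in C57 mice, at 15.8 ± 1.33% in C57 ASIV and 18.9 ± 2.30% in C57 vehicle. Each exact permutation p was 0.1, the smallest possible, and 0.28 adjusted over 28 share comparisons. The summed level was 117.7 ± 12.6 FPKM in BTBR ASIV, 98.5 ± 14.9 in BTBR vehicle, 138.1 ± 7.73 in C57 ASIV and 137.3 ± 7.26 in C57 vehicle.

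**Figure D4:**
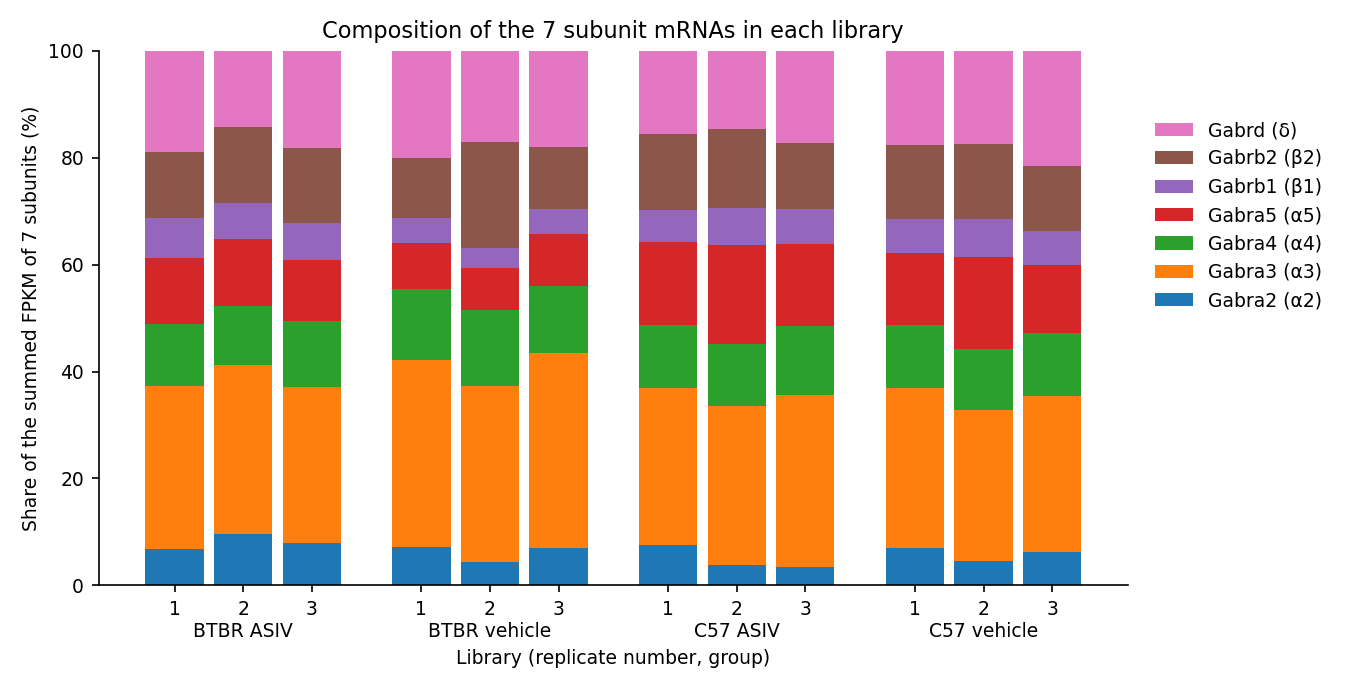
Share of each subunit in the summed FPKM of the 7 subunits (y axis, %), with 1 stacked bar per library, 3 per group. Gabra5 takes 7.78 to 9.77% in the BTBR vehicle libraries and 11.4 to 18.5% in all others, and Gabrb2 is widest in BTBR vehicle replicate 2.

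Genes whose pattern over the 12 libraries was closest were found by the root mean square difference of centred log2 values among 11883 other protein-coding genes. For Gabrb1 they were Mapre2 (0.0574), Abi1 (0.0646) and Ubap2l (0.0788), against a median of 0.438 over all genes compared. For Gabra5 they were Fgf12 (0.133), Ergic1 (0.145) and Rab6a (0.146), against a median of 0.551. For Gabra3 the closest was Ppp2ca (0.0376, median 0.252), for Gabra4 Pgam1 (0.0497, median 0.276), for Gabrb2 Sphkap (0.0966, median 0.381) and for Gabrd Dhrs1 (0.0879, median 0.292). Gabra2 had no gene nearer than Tnfrsf1a (0.200), with its own SD at 0.370. Among the subunits themselves the nearest were Gabra3 and Gabra4 (0.0848), whereas Gabra5 and Gabra2 were the farthest apart (0.600). This measure is small between genes that vary little. The SD was 0.166 for Gabra3 and 0.201 for Gabra4, against 0.523 for Gabra5 and 0.370 for Gabra2.

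Partners of the receptor were read from the same fit. Of 10 genes that anchor it or build inhibitory synapses, 4 were lower and 1 higher in BTBR vehicle than in C57 vehicle, and 4 were higher and 1 lower in BTBR ASIV than in BTBR vehicle. Of all genes tested, 43.1% and 29.1% were called in these comparisons, against 5 of 10 in the list in each. Gephyrin, the scaffold under inhibitory synapses (Gphn), stood at -0.34 ± 0.09 and 0.30 ± 0.09 in these comparisons, in that order. Shisa7, an auxiliary subunit of the receptor, stood at -0.54 ± 0.10 and 0.53 ± 0.10. Slitrk3, a postsynaptic adhesion protein, and Iqsec3, a gephyrin partner, were lower at -0.90 ± 0.19 and -0.62 ± 0.14, and then higher at 0.55 ± 0.19 and 0.43 ± 0.14. Lhfpl4, a receptor-bound protein that holds it at inhibitory synapses, went against them (0.29 ± 0.08, then -0.56 ± 0.08). By limma 0 of the 10 passed between the strains under ASIV, where 2.53% of all genes tested did, and 2 of the 10 had an unadjusted p under 0.05.

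Of 16 genes of receptor assembly and traffic, 3 were lower and 3 higher in BTBR vehicle against C57 vehicle, with a median of 0.03, where 43.1% of all genes tested were called. Nsf, a trafficking ATPase that binds β subunits, stood at -0.68 ± 0.12, Gabarapl1, of the GABARAP family, at -0.51 ± 0.11 and Ap2m1, the clathrin adaptor of receptor uptake, at -0.48 ± 0.11, while Plcl2, a phosphatase-binding partner of the receptor, stood at 0.49 ± 0.11. In BTBR ASIV against BTBR vehicle, Nsf rose (0.37 ± 0.12) and Plcl1 (-0.35 ± 0.09) and Plcl2 (-0.43 ± 0.11) fell, as 1 higher and 2 lower of 16, where 29.1% of all genes tested were called. Slc12a5 (KCC2), which keeps neuronal chloride low, was at 99.8 to 113.3 FPKM in BTBR ASIV, 109.3 to 137.1 in BTBR vehicle, 99.6 to 113.5 in C57 ASIV and 115.7 to 120.05 in C57 vehicle, and passed in no comparison.

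Among 7 genes of GABA supply, 3 were lower in BTBR vehicle than in C57 vehicle and 3 were higher in BTBR ASIV than in BTBR vehicle, with 0 in the other direction. Of all genes tested, 43.1% and 29.1% were called in these comparisons. They were Slc32a1, the vesicular GABA transporter, Abat, which degrades GABA, and Slc6a11, the glial GABA transporter GAT-3. Slc32a1 had 39.4, 36.6 and 54.9 FPKM in BTBR ASIV, against 20.5, 20.3 and 20.8 FPKM in BTBR vehicle. Gad1 and Gad2, which make GABA, passed in neither comparison, at -0.11 ± 0.26 and 0.18 ± 0.21 under vehicle and 0.12 ± 0.26 and 0.35 ± 0.21 for ASIV in BTBR.

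Markers of interneurons, cortical excitatory neurons and astrocytes are given as measured, and the part of cell types in the subunit differences was not tested. Markers of other types also held calls. Under vehicle, 1 of 7 endothelial markers was higher in BTBR and 2 lower. For microglia 1 of 8 was higher and 3 lower, and for oligodendrocytes 2 of 9 were higher and 0 lower. The summed level of 12 interneuron markers was 814.3 to 1168 FPKM in BTBR ASIV, 1652 to 1887 in BTBR vehicle, 979.2 to 1165 in C57 ASIV and 914.5 to 998.0 in C57 vehicle. Under vehicle, 4 of the 12 were higher in BTBR and 3 lower, where 22.3% of all genes tested were called higher and 20.8% lower. The 10 markers of cortical excitatory neurons summed to 1076 to 1442 FPKM in BTBR ASIV, 1976 to 2295 in BTBR vehicle, 1410 to 1665 in C57 ASIV and 1507 to 1741 in C57 vehicle. Of these 10, 1 was higher and 2 lower under vehicle, against the same shares of all genes tested. Few genes carried both sums, which was looked at after the values were seen. Nrgn alone was at 748.5 to 1040 FPKM in BTBR ASIV, 1486 to 1864 in BTBR vehicle, 992.1 to 1153 in C57 ASIV and 1070 to 1241 in C57 vehicle, and the other 9 excitatory markers summed to 327.2 to 406.5 FPKM in BTBR ASIV, 402.03 to 489.6 in BTBR vehicle, 405.5 to 512.0 in C57 ASIV and 437.3 to 499.9 in C57 vehicle. Without Sst, Cck and Pvalb, the other 9 interneuron markers summed to 234.7 to 289.9 FPKM in BTBR ASIV, 161.4 to 183.3 in BTBR vehicle, 258.4 to 295.8 in C57 ASIV and 247.9 to 283.3 in C57 vehicle, lowest in BTBR vehicle. These 9 did not move alike. Npy was at 27.3 to 50.5 FPKM in BTBR vehicle and 100.9 to 124.7 in C57 vehicle. Gad1 overlapped, at 41.0 to 58.6 and 44.1 to 69.2 FPKM, and Vip was higher in BTBR vehicle, at 12.1 to 17.0 against 10.0 to 10.6 FPKM. The 8 astrocyte markers summed to 732.0 to 832.4 FPKM in BTBR ASIV, 589.1 to 778.9 in BTBR vehicle, 628.6 to 727.8 in C57 ASIV and 741.9 to 867.6 in C57 vehicle. With genes split into 5 classes of exonic length, the median log2 difference ran from -0.04 to 0.06 for BTBR vehicle minus C57 vehicle.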

How the data were processed

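RNA was extracted with Trizol and sequenced with Illumina libraries, per the labels' protocols. The deposited values are FPKM made by the authors, 1 column for each library, with 0 further columns. The submitters' processing notes name HISAT2 2.0.5 and mm10; the sources used here do not give the counter, its annotation and strand setting, or any filter. GENCODE M21 gave symbol, position and exonic length for 17265 of 17283 identifiers. FPKM steps gave whole fragments within 0.02 for 97.6 to 98.0% of values under 50 fragments, and from these came depth and fragments per gene. Counting errors cover counting only.

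The 13586 genes reaching FPKM 1 in no fewer than 3 libraries were tested on log2(FPKM + 1), a scale that understates changes of low genes. limma 3.58.1 (R 4.3.3) fitted 4 group means in 1 model with trended, robust eBayes; tests were two-sided with Benjamini-Hochberg adjustment over all genes and a threshold of 0.05. The script was tested on simulated data. Shares and ratios were compared by exact permutation (Python 3.11.15). Alternatives changed the pseudocount, filter, scaling, length correction, moderation, the libraries fitted, or left out each library.

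The 7 subunits were named throughout, with up to 4 called partners per list and comparison by smallest p and the 3 closest genes by pattern. Gabrg1, Gad1, Gad2, Slc12a5 and Slc17a7 were added after their values were seen. Members and lists were chosen with earlier results of these data known. The NRF1 core was added to the motifs after its letters were seen in the Gabrb1 window. Some receptor and partner genes are not reported here.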

Additional observations from a re-analysis of the deposited data

Results flagged for a closer look

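In Gabrb1 the ASIV difference in BTBR mice departed from that in C57 mice by 0.82 on the log2 scale in the test of the difference itself, with all 3 BTBR ASIV libraries above BTBR vehicle and overlapping libraries in C57. Among partner genes the same test passed for Shisa7 (0.72), Iqsec3 (0.70), Abat (1.11), Slc32a1 (1.00) and Slc6a11 (1.12), and for Lhfpl4 with the opposite sign (-0.50). The BTBR vehicle libraries enter each of these values. By list, 2 of 10 anchoring and synapse genes passed higher and 1 lower, and 3 of 7 GABA supply genes passed higher and 0 lower. None passed among 16 assembly and traffic genes, 4 tested chloride transporters and 5 other tested subunits. Of the 7 subunits, 1 passed. Over all genes tested, 14.3% passed, so passing was common in this test.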

How the results depend on the processing

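Of 1005 values recomputed under alternatives, 937 kept their direction and their side of the threshold or stayed within 1.5 times. Fitting the compared libraries alone gave 2258 genes called for ASIV in BTBR (3954 in the fit of all libraries) and 560 for BTBR ASIV minus C57 vehicle (296). With the replicate block, 1 subunit was called for BTBR ASIV minus C57 vehicle (Gabra5, limma adjusted p = 0.0275) and 2 for the interaction (Gabra5 added, limma adjusted p = 0.0318). Correlations of libraries with the same number ran from -0.17 to 0.28, and those with different numbers from -0.37 to 0.22. These ranges overlap, so whether the numbers pair libraries was not settled. Rescaling without mitochondrial genes also gave 2 for the interaction. The near-zero interaction of Gabra4 (-0.00) turned to 0.000538 with pseudocount 0.1, 0.0179 with median-ratio scaling, 0.0309 with quantile normalization, 0.0609 without mitochondrial genes and 0.00452 with length correction, and that of Gabra3 (0.00) to -0.0460 in TPM; the cause was not tested. The split of called genes moved by over 10 points in TPM for BTBR ASIV minus C57 vehicle (63.0% higher, against 43.2%), and without mitochondrial genes for ASIV in BTBR (63.1%, against 47.1%) and the interaction (59.0%, against 48.4%). Leaving out each library in turn gave 3 to 5 subunits called for the strains under vehicle, 0 to 1 for the strains under ASIV, 2 to 3 for ASIV in BTBR, 0 to 1 for BTBR ASIV minus C57 vehicle and 1 to 2 for the interaction. It gave 4542 to 5901 genes called for the strains under vehicle and 3071 to 3871 for ASIV in BTBR. Genes called were 99 to 460 for the strains under ASIV, 0 to 1 for ASIV in C57, 99 to 394 for BTBR ASIV minus C57 vehicle and 1166 to 2178 for the interaction. Differences that changed sign were, for ASIV in BTBR, Gabra3 (-0.0255 to 0.151) and Gabra4 (-0.0755 to 0.208); for ASIV in C57, Gabra3 (-0.00214 to 0.13), Gabra4 (-0.0223 to 0.116), Gabrb1 (-0.0531 to 0.0926) and Gabrb2 (-0.0343 to 0.108); for the interaction, Gabra3 (-0.0935 to 0.0834), Gabra4 (-0.13 to 0.15) and Gabrb2 (-0.0271 to 0.524). Without C57 ASIV replicate 1 the interaction of Gabra2 passed (1.14, limma adjusted p = 0.0355), and without BTBR ASIV replicate 2 so did Gabra5 in BTBR ASIV minus C57 vehicle (limma adjusted p = 0.0468). With 3 libraries a group, exact tests cannot go below 0.1, so shares and ratios could not pass.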
